A study of Homo sapiens with 27 samples.

Results

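The genes described here are 76 autosomal protein-coding genes for proteins of the cytosolic ribosome, out of 19126 autosomal protein-coding genes with a position in RefSeq (GRCh38). They were chosen by symbol, as RPL or RPS followed by a number with an optional A or L, together with RPLP0, RPLP1 and RPLP2. Of these, 46 code for proteins of the large subunit and 30 for proteins of the small subunit. A transposon insertion was assigned to a gene when it lay inside the gene or within 5 kb of either end. The gene bounds had a median length of 4905 bases, and the merged windows covered 1.25 Mb. Windows can overlap, as those of RPL3L and RPS2 do, so that some insertions count for more than 1 gene.

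Insertions were read from RNA in HCT116, a human colon cancer cell line, with transposons that transcribe out of their own end into the neighbouring DNA. All groups were transfected and grown for 2 weeks in puromycin at 3 µg/ml. Each of the 9 groups has 3 libraries. WT_PB stands for the wild-type transposon with piggyBac, and WT_hyPB for the same transposon with hyperactive piggyBac. WT_rePB and WT_rehyPB paired it with the re-engineered versions of these transposases, and WT_PBat with piggyBat. short_PB and short_hyPB had the short transposon, with wild-type and with hyperactive piggyBac. sym_rePB and sym_rehyPB had the symmetric transposon, with re-engineered and with re-engineered hyperactive piggyBac. The labels do not say what re-engineered, short and symmetric change, nor whether the replicates came from separate cultures, so that p-values measure only the spread between these libraries.

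Ribosomal proteins are the protein components of the ribosome. Dividing cells transcribe their genes at high rates, and the genes are short, with many of the small nucleolar RNAs encoded in their introns. The piggyBac and piggyBat transposases insert at the 4-base sequence TTAA, so an insertion near such a gene needs that sequence there.

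The 12 libraries of the wild-type transposon with a piggyBac form held 336333 to 570362 distinct insertion sites each and are called deep below, and the other 15 held 2814 to 9212. Depth therefore cannot be told apart from transposon type or, for piggyBat, from the transposase. Between WT_hyPB replicates 1 and 2, 75.4% and 76.3% of the sites of each were also in the other, and between WT_PBat replicates 1 and 3 it was 52.5% and 42.5%. For other pairs of replicates within a group it was 7.45% to 29.0%. Of the 224 piggyBat sites near ribosomal protein genes, 179 were also listed in a deep library, as were 60 of 68 for short_PB, 65 of 69 for short_hyPB, 25 of 27 for sym_rePB and 37 of 37 for sym_rehyPB. Over the whole genome 73.4% to 73.9% of the sites of a piggyBat library were listed in a deep library. The part of shared sites in the results was not tested.

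The sequence before the annotated start of 59 of the 76 genes was at hand (RefSeq, GRCh38.p14), and 4 of these stretches are shown. For RPL17, RPS27 and RPLP1 they hold a promoter TTAA position listed in 7 or 9 libraries, and for RPS12 one listed in none. Not every TTAA in capitals was a listed site. Each is the 250 bases before the start, 5′ to 3′ in the direction of the gene, with every TTAA in capitals. They lie at chr18:49492466-49492715 on the minus strand for RPL17, chr1:153990512-153990761 on the plus strand for RPS27, chr15:69452568-69452817 on the plus strand for RPLP1 and chr6:132814319-132814568 on the plus strand for RPS12.
RPL17: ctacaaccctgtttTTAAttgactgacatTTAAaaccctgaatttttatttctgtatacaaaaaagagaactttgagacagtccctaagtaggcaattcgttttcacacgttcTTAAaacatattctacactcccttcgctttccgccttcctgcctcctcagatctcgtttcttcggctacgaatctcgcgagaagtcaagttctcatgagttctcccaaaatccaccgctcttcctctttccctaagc
RPS27: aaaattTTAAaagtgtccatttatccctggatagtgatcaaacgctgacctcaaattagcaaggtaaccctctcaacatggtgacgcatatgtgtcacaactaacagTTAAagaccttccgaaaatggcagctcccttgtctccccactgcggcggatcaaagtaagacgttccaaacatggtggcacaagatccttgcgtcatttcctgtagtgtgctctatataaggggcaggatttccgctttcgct
RPLP1: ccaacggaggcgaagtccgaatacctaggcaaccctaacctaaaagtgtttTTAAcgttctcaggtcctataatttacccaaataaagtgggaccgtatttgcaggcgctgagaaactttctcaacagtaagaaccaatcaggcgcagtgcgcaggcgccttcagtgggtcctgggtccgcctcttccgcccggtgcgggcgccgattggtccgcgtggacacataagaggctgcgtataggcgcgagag
RPS12: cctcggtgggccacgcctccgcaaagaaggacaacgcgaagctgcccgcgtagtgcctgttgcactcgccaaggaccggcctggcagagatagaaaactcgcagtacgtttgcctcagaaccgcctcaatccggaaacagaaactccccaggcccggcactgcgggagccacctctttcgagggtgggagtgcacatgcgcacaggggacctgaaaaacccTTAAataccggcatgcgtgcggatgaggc

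RPL17 is a protein of the large subunit, and its TTAA at position -221 from the start was a listed site in 9 libraries, namely 2 of WT_PB, 3 of WT_hyPB, 1 of WT_rePB and 3 of WT_rehyPB. The TTAA of RPL17 at positions -236 and -137 were listed in none. The TTAA of RPS27, a small-subunit protein, at position -143 was likewise listed in 9 libraries, and its TTAA at -244 in 2. The TTAA of RPLP1, a protein of the large-subunit stalk, at position -199 was listed in 7 libraries, as was one of RPL29 at position -200. The TTAA of RPS12 at position -29 was listed in none of the 27 libraries. TTAA, which reads the same on both strands, occurred in 26 of 72 promoter windows of the ribosomal protein genes (36.1%), each running from 250 bases before to 50 after a start. It occurred in 40.3% of 21156 such windows of all protein-coding genes. Of 33 TTAA positions in the 72 windows, 15 were listed in a deep library (45.5%, against 36.0% of 14149 positions over all genes). None was listed in a library with the short or symmetric transposon (2.83% over all genes) or with piggyBat (1.03%). At such low shares 33 positions are too few to tell a count of 0 from that of all genes. A match here is a description of the sequence.

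Insertions near ribosomal protein genes took a larger share of all sites with piggyBat than in any other group. In WT_PBat the 3 libraries held 87, 58 and 79 such sites, which is 121, 84 and 89.0 per 10000 sites (98.1 ± 20.1, SD, n = 3). The 3 WT_PB libraries held 560, 470 and 571, which is 12.8, 13.5 and 13.6 per 10000 (13.3 ± 0.44). The groups did not overlap, and the means of the log2 shares differed by 2.86, or 7.28-fold as a ratio of geometric means. Log2 ratios of shares below are computed in this way. Counting error alone gave 95% Wilson intervals of 65.1 to 108 for the lowest piggyBat library and 12.5 to 14.7 for the highest WT_PB library. A position counts once per library. These intervals, like all counting limits here, leave out the spread between libraries and the sites shared by linked replicates. They also leave out that PCR copies behind a listed peak are not independent molecules.

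The share also differed among the deep groups. It was 15.2 ± 0.072 per 10000 in WT_hyPB, 10.02 ± 0.44 in WT_rePB and 13.4 ± 0.27 in WT_rehyPB (n = 3 each). WT_hyPB lay above WT_PB and WT_rehyPB above WT_rePB with no overlap, by 0.19 and 0.42 on the log2 scale. WT_rePB lay below WT_PB by a log2 ratio of -0.41 and WT_rehyPB below WT_hyPB by -0.18, again with no overlap. The WT_rePB libraries were also the deepest, at 542490 to 570362 sites, where the other deep libraries had at most 453202. With every deep library cut to its 336333 tallest sites, these log2 ratios were -0.38 and -0.22. In that cut the hyperactive pairs had 0.20 and 0.36. The part of depth in these differences was not tested.

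With the short transposon the share was 24.8 ± 2.57 per 10000 in short_PB (21 to 25 sites a library) and 31.6 ± 1.49 in short_hyPB (23 sites in each library). With the symmetric transposon it was 29.5 ± 6.36 in sym_rePB (7 to 11 sites) and 30.2 ± 3.51 in sym_rehyPB (11 to 13 sites). Each group lay above the wild-type transposon group of the same transposase, by log2 ratios of 0.89, 1.06, 1.53 and 1.17, with no overlap. Peak height, the largest coverage of a peak, moved with the share in WT_PB, where it was 11.5 ± 0.48 per 10000 among sites of height 5 to 6 and 19.5 ± 3.19 at height 50 and above. At height 10 to 19 the WT_PB share was 12.4 ± 0.48. With the short transposon, short_PB had 23.8 ± 11.3 at height 5 to 6 and 25.1 ± 9.30 at 10 to 19. In short_hyPB the values were 35.2 ± 2.05 and 33.7 ± 17.8. At height 20 to 49 short_PB had 2 sites near the genes and short_hyPB 1. A rise with height can therefore not be judged for the short transposon.

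When each library was cut to its tallest sites, as many as in the smallest library of the comparison, the differences between the short and the wild-type transposon were smaller. They were 25.1 ± 1.67 in short_PB against 21.3 ± 4.66 in WT_PB, and 32.4 ± 1.67 in short_hyPB against 25.1 ± 3.65 in WT_hyPB. In the same cut sym_rehyPB had 30.8 ± 5.43 against 17.8 ± 9.40 in WT_rehyPB, and sym_rePB 30.8 ± 5.43 against 2.37 ± 2.05 in WT_rePB. Here each library was cut to 2814 sites, so these values rest on very few sites near the genes. A WT_rePB library had none, so no log2 ratio can be given for that pair. The value for piggyBat was 100.5 ± 19.3 against 21.2 ± 4.66 in WT_PB, a log2 ratio of 2.25.

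**Figure D1:**
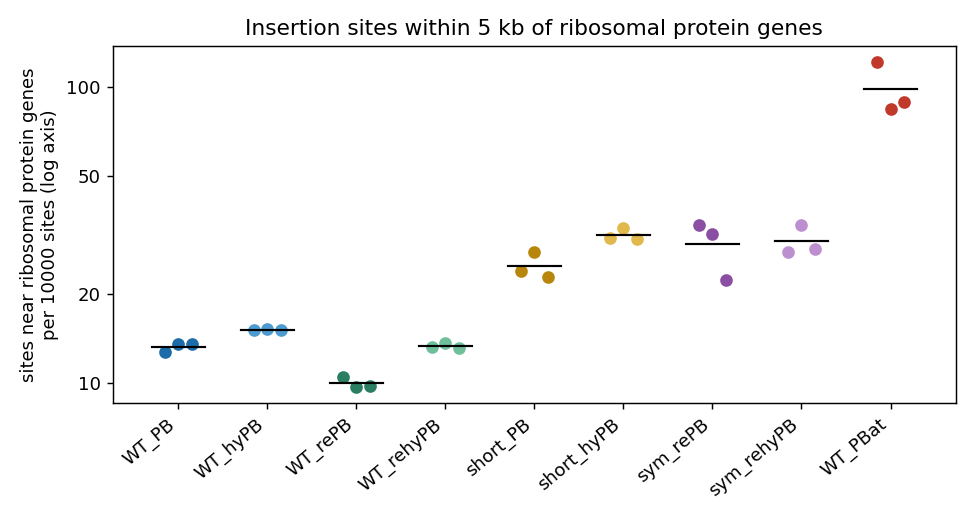
Sites within 5 kb of the 76 ribosomal protein genes per 10000 sites of the library (log axis), one point per library and a line at the mean of each group of 3. The piggyBat libraries lie at 84 to 121, above every other library, and the 12 deep libraries lie at 9.77 to 15.2.

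Per length of window the ribosomal protein genes held 10.6 ± 0.35 sites per 10000 per Mb in WT_PB and 78.3 ± 16.1 in WT_PBat, a ratio of 7.37. Over all autosomal protein-coding genes the density was 4.33 ± 0.019 and 5.82 ± 0.073, a ratio of 1.34. Over the 10178 genes no longer than the longest ribosomal protein gene (27723 bases) the ratio was 2.58. The same ratio was 3.87 for 67 genes of translation initiation and elongation factors, 4.56 for 24 ribosome assembly factors, 2.03 for 77 mitochondrial ribosomal proteins and 1.85 for 39 proteasome subunits. It was 5.54 for 7 cytosolic ribosomal protein genes whose symbols the rule leaves out, such as RPSA and FAU. The density of those 7 genes was 11.1 ± 0.58 in WT_PB and 61.4 ± 22.3 in WT_PBat. These ratios describe the lists and were not tested against each other.

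**Figure D2:**
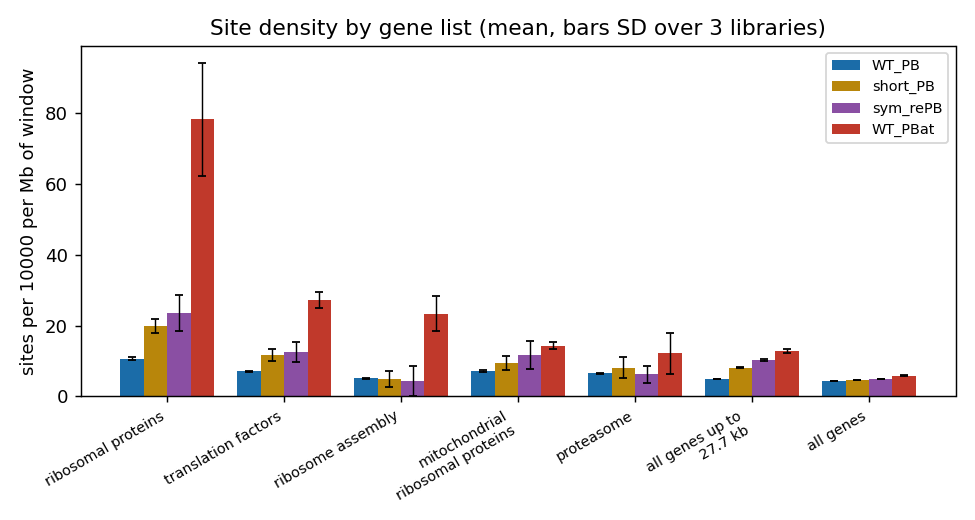
Mean site density (sites per 10000 per Mb of window, bars from 0, error bars SD over 3 libraries) for 7 gene lists in WT_PB, short_PB, sym_rePB and WT_PBat. Among the lists drawn, the ribosomal protein genes have the tallest bar in each of the 4 groups, at 10.6, 19.8, 23.6 and 78.3. The 7 cytosolic ribosomal protein genes that the rule leaves out are not drawn. They had 11.1 ± 0.58, 8.78 ± 0.099, 16.9 ± 14.6 and 61.4 ± 22.3.

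Gene by gene, 68 of the 76 had more deep sites per kb of window than the median autosomal gene, and 42 lay in the top decile. The median was 0.0102 sites per 10000 per kb for the ribosomal protein genes and 0.00409 for all genes. In a deep library 69 to 71 of the 76 held at least 1 site. With piggyBat, 41 to 43 held a site in each library and 55 in any, so that 27.6% had none, against 63.1% of all genes. The short_PB libraries hit 14 to 22 (35 in any), short_hyPB 15 to 18 (28), sym_rePB 6 to 10 (19) and sym_rehyPB 9 to 11 (23).

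The sites were spread over many of the genes. RPS29, with the longest bounds, held the most sites in each deep group, 5.38% of those near ribosomal protein genes in WT_PB. With piggyBat RPL10A held the most, 6.09%, and the 5 leading genes together held 22.2%. Large-subunit and small-subunit genes had 10.8 ± 0.29 and 10.4 ± 0.50 sites per 10000 per Mb in WT_PB, and 85.2 ± 21.9 and 71.8 ± 13.7 in WT_PBat, with overlapping libraries in both groups. The libraries of the subunits did not overlap in WT_rehyPB (11.3 ± 0.066 and 9.88 ± 0.49) and short_hyPB (27.3 ± 3.01 and 22.6 ± 2.17), both with the large subunit higher, and overlapped in the other 7 groups, of which WT_hyPB, short_PB and sym_rePB had the small subunit higher on average.

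Per kb of window in the deep groups RPS12 led with 0.0356 sites per 10000, followed by RPL30 with 0.0224, RPL27A with 0.0197, RPL35A with 0.0189 and RPL17 with 0.0188. RPS12 codes for a small-subunit protein. Its window held 27, 16 and 25 sites in WT_PB, 26, 24 and 24 in WT_hyPB, 19, 15 and 16 in WT_rePB, and 12, 19 and 15 in WT_rehyPB.

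**Figure D3:**
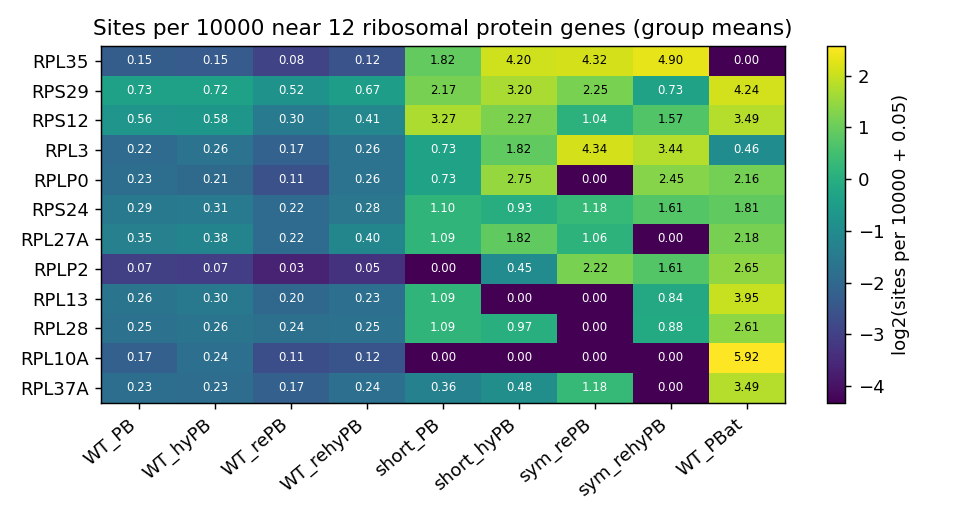
Mean sites per 10000 in the 9 groups for the 12 ribosomal protein genes with the highest mean over groups (colour: log2 of the value plus 0.05, printed value: sites per 10000, n = 3 libraries). RPL10A reads 5.92 with piggyBat and 0.00 with the short and symmetric transposons, and RPL35 reads 0.00 with piggyBat and 4.90 in sym_rehyPB.

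RPL10A, a large-subunit protein, held 5, 2 and 7 sites in the piggyBat libraries (5.92 ± 2.65 per 10000) and 7, 6 and 7 in WT_PB (0.17 ± 0.0065). It held none in the 12 libraries with the short or symmetric transposon. A count of 0 over the 27435 sites of short_PB allows up to 1.09 per 10000, and the piggyBat mean was 5.41-fold this limit. That ratio leaves out the spread of the piggyBat mean, to which the linked libraries gave 5 and 7 sites. RPL10A was the only ribosomal protein gene with enough sites for the fit of single genes between piggyBat and WT_PB, and it passed the filter only through its piggyBat sites, so that it had to differ there. The fit used limma with voom weights on sites per gene, over genes expected to hold at least 2 sites in the smallest library, with Benjamini-Hochberg adjustment over all genes tested. Its fitted log2 change of 5.11 ± 0.34 (SE) is therefore given as a description and not as a test. Of 263 genes in the fit 84.4% passed the threshold in either direction and 76.8% were higher.

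Against short_PB, a group of like depth, 3 of the genes entered the fit. RPL10A again did so only through piggyBat, and the ratio of its mean to the short_PB limit is the 5.41-fold above. Of 325 genes 47.4% passed the threshold and 43.4% were higher. RPS29 had 1.27 ± 0.65 (adjusted p = 0.119) and RPS12 0.15 ± 0.47 (adjusted p = 0.832) in limma. RPL10A had too few sites for the filter in either comparison when WT_PBat replicate 1 or WT_PBat replicate 3 was left out, or when these linked libraries were averaged. Without WT_PBat replicate 2, RPS29 also entered the fit against WT_PB, through its piggyBat sites in the linked replicates, and passed the threshold as did 279 of the 324 genes there.

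RPS3, a small-subunit protein, came next with piggyBat, at 3, 4 and 3 sites (4.45 ± 1.23 per 10000) against 0.31 ± 0.062 in WT_PB. RPS29 had 3, 2 and 5 sites (4.24 ± 1.37 against 0.73 ± 0.058). RPL13 had 4, 2 and 3 sites (3.95 ± 1.42 against 0.26 ± 0.12). These values lie within one another's spread, so the order of the 4 leading genes with piggyBat is not resolved. RPL37A, RPL17 and RPS12 followed, each with 3, 2 and 3 sites (3.49 ± 0.65).

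Of 71 ribosomal protein genes with a site in WT_PB or WT_PBat, 27 had all 3 piggyBat libraries above all 3 WT_PB libraries (38.0%), against 7.57% of 17810 genes. At this depth that means a site in every piggyBat library, since 1 site there is already a larger share than a deep library gave. All 3 piggyBat libraries lay below WT_PB for 15 of the genes (21.1%, against 49.7% of all genes), which means no site in any piggyBat library. Against short_PB the counts were 23 higher of 61 (9.27% of all genes) and 1 lower (2.49% of all genes), which was RPL35.

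The piggyBat sites also lay elsewhere along the genes. Over the 59 genes with a known strand, 13.5% ± 2.6 of piggyBat sites were upstream of the gene, 38.4% ± 3.6 inside it and 48.1% ± 2.3 downstream (n = 3, 197 sites). In WT_PB 30.7% ± 1.7 were upstream, 43.4% ± 1.8 inside and 25.9% ± 2.8 downstream (1339 sites). The groups overlapped neither upstream, at 11.1% to 16.2% against 29.4% to 32.6%, nor downstream, at 46.3% to 50.7% against 23.7% to 29.1%. Counting each position once per group, piggyBat had 13.4% upstream and 46.3% downstream of 134 positions.

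Close to the gene start, within 1 kb on either side, lay 6.1% ± 2.8 of the piggyBat sites and 23.9% ± 1.0 of the WT_PB sites. Within 1 kb of the gene end lay 30.1% ± 4.8 and 14.5% ± 0.22. For the genes no longer than the longest ribosomal protein gene, piggyBat had 30.6% upstream and 27.3% downstream, and WT_PB had 32.8% and 22.2%. The translation factor genes had 36.9% of their piggyBat sites within 1 kb of the gene end and 5.1% within 1 kb of the start, and the proteasome genes 10.2% and 47.1%.

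**Figure D4:**
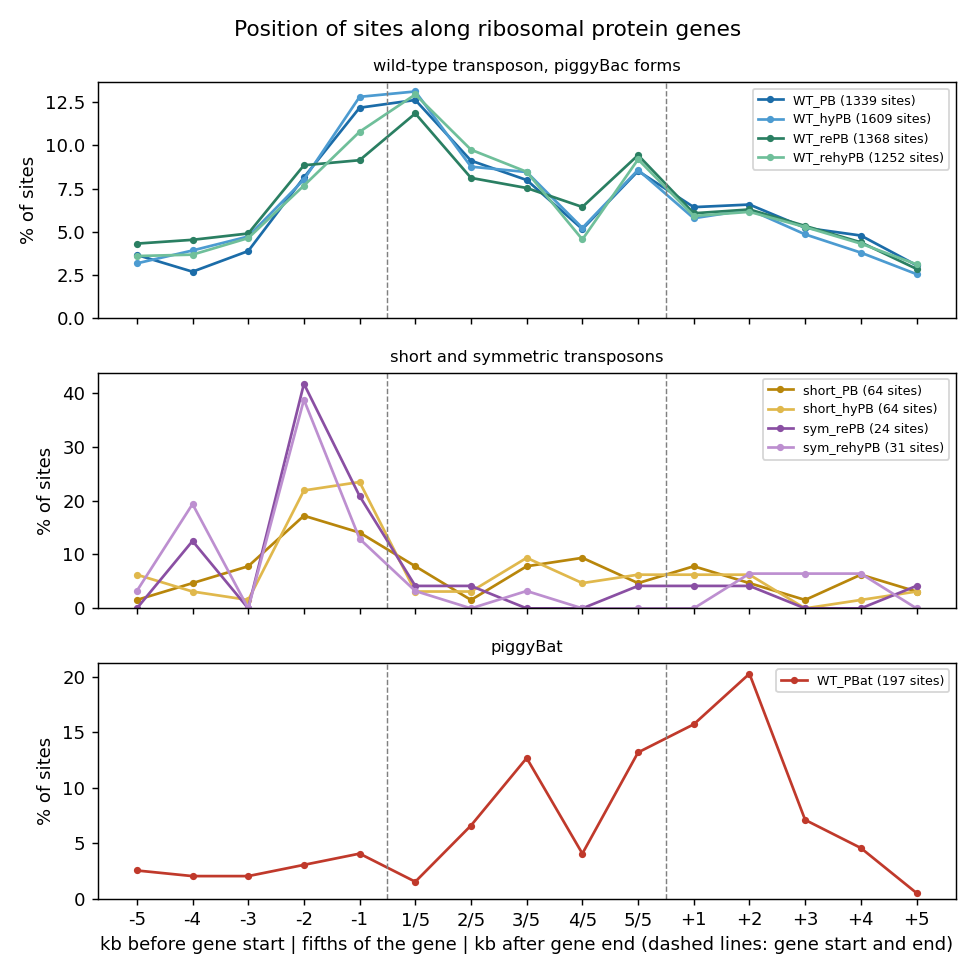
Percent of sites in 1-kb bins before the gene start, in 5 equal parts of the gene and in 1-kb bins after the gene end, for 59 ribosomal protein genes, pooled over 3 libraries per group; the vertical scales of the 3 panels differ. The deep groups peak at the start, the symmetric groups 1 to 2 kb before it, and piggyBat 1 to 2 kb after the gene end. The symmetric peaks are 10 sites in sym_rePB and 12 in sym_rehyPB. Of these, positions 1503 and 1846 bases upstream of RPL35 and 1190 upstream of RPL3 gave 3, 1 and 2 in sym_rePB. In sym_rehyPB they gave 3, 3 and 2.

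The deep groups resembled each other in this measure, with 30.3% to 32.6% upstream and 23.2% to 25.9% downstream as group means. With the short transposon 45.6% ± 9.3 (short_PB) and 56.2% ± 2.5 (short_hyPB) of sites were upstream, on 64 sites each. With the symmetric transposon the values were 73.7% ± 15.9 (sym_rePB, 24 sites) and 73.9% ± 6.8 (sym_rehyPB, 31 sites). All 12 libraries lay above the highest deep library, at 33.5%. All the short genes pooled had 39.5% and 41.4% upstream with the short and 42.8% and 43.4% with the symmetric transposon. Counting each position once per group, 71.4% of 21 positions in sym_rePB and 66.7% of 21 in sym_rehyPB were upstream.

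The orientation of insertions was close to even upstream of the genes in WT_PB, where 50% of 458 had the direction of the gene. These counts are pooled over the 3 libraries of a group, and a site with peaks in both directions counts once for each. Sites shared by the linked piggyBat replicates count again. No spread between libraries is given, and the differences were not tested. Inside the genes 41.5% of 614 WT_PB insertions so counted had that direction, and 58.4% of 77 with piggyBat did. Downstream the values were 43.3% for WT_PB and 56.7% of 97 for piggyBat, and upstream piggyBat had 29.6% of 27.

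For the transposase forms with the wild-type transposon, limma tested 66 of the 76 genes. The other 10 fell below the filter on low site numbers. With the hyperactive form 60 of the 66 had a positive log2 change, and the median was 0.30. Over all 14263 genes tested 59.1% were positive with a median of 0.059, and over the short genes 68.0% with 0.15. Only RPL3L was called, out of 66, where 0.554% of all genes were called higher and 1.13% in either direction.

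RPL3L codes for a large-subunit protein that replaces RPL3 in skeletal and heart muscle. Its window held 3, 3 and 4 sites in WT_PB and 5, 5 and 5 in WT_hyPB. It held 1, 0 and 1 in WT_rePB and 5, 4 and 5 in WT_rehyPB. Every WT_rePB library was thus below every other deep library, and WT_hyPB also lay above WT_PB. The hyperactive effect, averaged over both pairs, was 1.65 ± 0.35 (limma, adjusted p = 0.00683). It was no longer called without WT_rePB replicate 2 (1.38, adjusted p = 0.0788 in limma), at a minimum peak height of 10 (1.33, adjusted p = 0.168) or after thinning to equal site numbers (1.59, adjusted p = 0.0731). The difference between the hyperactive effects with and without re-engineering was 2.40 ± 0.69 (adjusted p = 0.216 in limma). No ribosomal protein gene was called for that difference in limma. Over all genes 0.00701% were called. At an unadjusted p under 0.05 there were 7 of the 66 and 1366 of all 14263 genes, a share close to the background.

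With the re-engineered forms 57 of the 66 genes had a negative log2 change, and the median was -0.30. Over all genes tested 53.9% were negative with a median of -0.027, and over the short genes 64.7% with -0.14. In limma 2 of the 66 were called, both lower, where 2.15% of all genes were called lower and 3.43% in either direction. RPS12 changed by -0.70 ± 0.15 (adjusted p = 0.00392), from 0.56 ± 0.084 per 10000 in WT_PB to 0.30 ± 0.042 in WT_rePB and from 0.58 ± 0.050 in WT_hyPB to 0.41 ± 0.095 in WT_rehyPB. The 3 libraries of each re-engineered group lay below those of its counterpart.

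RPL14, a large-subunit protein, changed by -0.86 ± 0.23 (limma, adjusted p = 0.0253). It held 10, 10 and 10 sites in WT_PB and 9, 4 and 13 in WT_rePB, and 14, 13 and 17 in WT_hyPB and 4, 10 and 7 in WT_rehyPB. The first pair overlapped and the second did not. The call was lost in limma without WT_PB replicate 2 (adjusted p = 0.0575), WT_rehyPB replicate 1 (0.0702), WT_rehyPB replicate 3 (0.0656) or WT_rePB replicate 2 (0.105). The hyperactive and re-engineering comparisons share all 12 libraries.

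**Figure D5:**
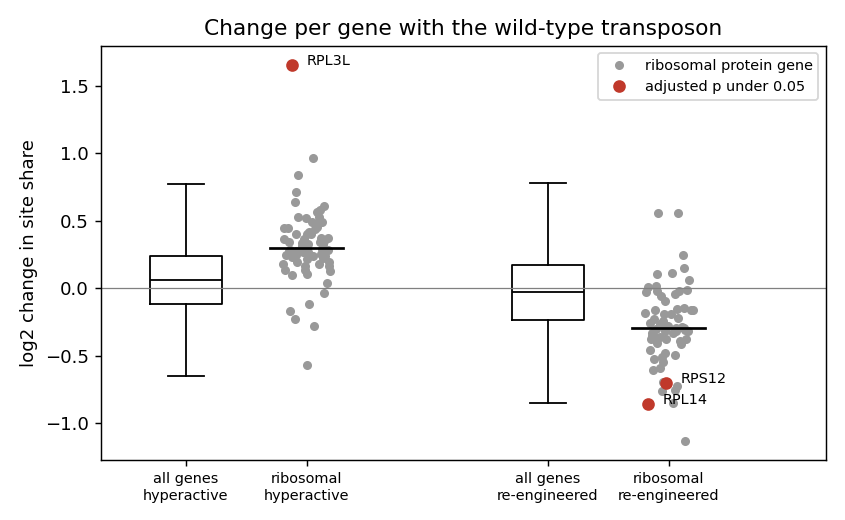
Log2 change in site share per gene for the hyperactive and the re-engineered transposase with the wild-type transposon. Boxes show the quartiles of 14263 genes with whiskers to the last value within 1.5 times the box, points are 66 ribosomal protein genes with a line at their median (0.30 and -0.30), and red points are RPL3L, RPS12 and RPL14, with an adjusted p under 0.05.

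Library by library the same pattern held in counts. WT_hyPB lay wholly above WT_PB for 12 of 71 ribosomal protein genes (9.51% of all genes) and wholly below for 0 (7.74% of all genes). WT_rehyPB lay above WT_rePB for 22 of 72 (9.34% of all genes) and below for 0 (4.58%). WT_rePB lay below WT_PB for 23 of 72 (10.5% of all genes) and above for 0 (6.66%). WT_rehyPB lay below WT_hyPB for 11 (8.54% of all genes) and above for 4, namely RPL13A, RPL15, RPL8 and RPS26 (9.28% of all genes).

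No ribosomal protein gene passed the low-value filter in the comparisons of the short or symmetric with the wild-type transposon. In those limma fits 154 and 28 other genes were tested, of which 69.5% and 89.3% were called. Single genes can therefore only be given by their values. RPL35, a large-subunit protein, held 1, 2 and 2 sites in short_PB, 2, 5 and 2 in short_hyPB, 2, 1 and 1 in sym_rePB and 2, 2 and 2 in sym_rehyPB. That is 1.82 ± 0.64, 4.20 ± 2.64, 4.32 ± 1.66 and 4.90 ± 0.46 per 10000, against 0.15 ± 0.056 in WT_PB. It held 0 sites in each piggyBat library, which allows up to 1.31 per 10000. The short_PB mean of 1.82 rests on 1, 2 and 2 sites, so its own counting error allows no bound on the ratio.

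RPL3, a large-subunit protein at the peptidyl transferase centre, had 4.34 ± 1.76 per 10000 in sym_rePB (1, 1 and 2 sites) and 0.17 ± 0.016 in WT_rePB (9, 11 and 9). RPLP0, which anchors the stalk of the large subunit, had 2.75 ± 1.35 in short_hyPB (3, 2 and 1 sites) and 0 sites in each sym_rePB library. RPLP2, a further stalk protein, had 2 sites in each piggyBat library (2.65 ± 0.34) and 0.073 ± 0.017 in WT_PB. RPS24, RPL27A and RPL28 completed the 12 genes with the highest means, and with piggyBat they had 1.81 ± 0.95, 2.18 ± 0.76 and 2.61 ± 2.80 per 10000.

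Many of these sites were the same bases in several libraries. The 27 libraries listed 2581 distinct positions near ribosomal protein genes, of which 1142 were in 1 library and 81 in at least 10. Of the 2581, 1163 lay inside a ribosomal protein gene and 479 inside another protein-coding gene. The position in the most libraries was chr9:124863460-124863463, in 23 libraries, 1503 bases upstream of RPL35 and inside the neighbouring gene ARPC5L, which codes for a subunit of an actin-nucleating complex. It was listed in all 12 deep libraries, in 11 of the 12 with the short or symmetric transposon and in no piggyBat library. A further position inside ARPC5L, chr9:124863803-124863806, was in 19 libraries. These positions inside ARPC5L gave all 6 sites of RPL35 in sym_rehyPB, 3 at each.

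The position chr10:78029867-78029870, 3996 bases upstream of RPS24, was in 20 libraries and in all 9 groups. A position 1190 bases upstream of RPL3, chr22:39320813-39320816, was in 19, and one 1214 bases downstream of RPLP0, chr12:120195485-120195488, was in 19, including 2 piggyBat libraries. RPS12 had chr6:132813648-132813651 (16 libraries, 921 bases upstream, inside the non-coding gene LOC107986644). RPS26 had chr12:56041392-56041395 (15 libraries, 526 bases upstream), and RPL23 had chr17:38855321-38855324 (15 libraries, inside the pseudogene RPS20P35).

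Of 150 positions near ribosomal protein genes in a piggyBat library, 62 were in at least 2 of the 3 and 12 in all 3. The linked replicates 1 and 3 shared 54 sites. Of the 12, 11 were also listed in other groups. RPL10A had 2 of the 12, chr6:35472056-35472059 and chr6:35472489-35472492, which lay 1276 and 1709 bases downstream of the gene, outside any annotated gene. RPS3 had one inside the gene at chr11:75407838-75407841 and RPL13 one inside the gene at chr16:89563319-89563322. The position seen with piggyBat alone was chr2:216498161-216498164, 683 bases upstream of RPL37A.

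No site was listed in any library for RPS25, RPS9 and RPS18, all small-subunit proteins. Over the 5272110 library-wise sites of the 12 deep libraries, a count of 0 allows up to 0.00569 per 10000. Within 20 kb of them the 27 libraries listed 1 site for RPS25, 2 for RPS9 and 2 for RPS18, so the gap runs past the windows. RPL7A, with 3 sites, and the intronless RPL10L, with 6, came next (RPL7A was named after its values were seen).

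The tissue-restricted paralogues differed. RPL39L held 64 sites, all in deep libraries (0.11 ± 0.061 per 10000 in WT_PB), and RPL10L 6 (0.027 ± 0.029). RPL3L held 47 sites in 17 libraries.

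Some of the genes have known roles outside translation or in disease. RPL5 and RPL11, which bind MDM2 and so stabilise p53 when ribosome assembly is disturbed, had 0.26 ± 0.11 and 0.18 ± 0.044 per 10000 in WT_PB, and 0.46 ± 0.80 and 2.73 ± 1.53 with piggyBat. RPS14, lost in the 5q- syndrome, had 0.17 ± 0.067 and 1.30 ± 1.40. RPS19 and RPS26, mutated in Diamond-Blackfan anaemia, had 0.14 ± 0.041 and 0.13 ± 0.034 in WT_PB and 1.81 ± 0.95 and 1.89 ± 1.64 with piggyBat. RPL22, recurrently mutated in microsatellite-unstable tumours, had 0.24 ± 0.016 and 1.79 ± 0.88. The piggyBat libraries of RPL11, RPS19 and RPL22 lay above all WT_PB libraries, and those of RPL5, RPS14 and RPS26 included 0 sites.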

How the data were processed

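Self-reporting transposon insertions were mapped from RNA in 27 HCT116 libraries in 9 labelled groups of 3. The authors deposited 1 peak list per library; its coverage columns (the sum over a peak and its height) are signal not scaled to depth, per the values of the deposited files, and no listed height was under 5. Per the submitters' processing notes the reads were handled with cutadapt 3.4 and HISAT2 2.2.1.0, on hg38. The deposited files end in other columns, including 1 constant per library, that were not used as measurements.

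A site is the 5′ edge of a peak, shifted by 3 bases on the minus strand, counted once per library; depth is the number of distinct sites. Of 20121 sites in RefSeq promoter windows, 19610 lay on TTAA. Gene bounds came from RefSeq GRCh38.p14. Shares are per 10000 sites. Single genes were tested with limma 3.58.1 (voom, R 4.3.3) over all genes, Benjamini-Hochberg threshold 0.05, filter of at least 2 expected sites. The test was tried on simulated counts without linked libraries. For the hyperactive effect it recovered 56% of 2-fold and 90% of 4-fold changes, with 11 false calls. The short transposon fit recovered 56.4% and 76.3%, with 7 false calls. For piggyBat it recovered 15.2% and 53.8% against WT_PB, and 12.3% and 45.7% against short_PB. Counting intervals are Wilson 95%. No p was computed for summed shares. Python 3.11.15 and pandas 2.3.3 did the counting.

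The genes and lists were chosen with earlier results of these data known. Named were the 12 genes with the highest mean over groups, the 5 densest in deep groups, those called, those without a site, RPL3L, RPL10L and RPL39L, 6 genes with known roles, the 5 highest with piggyBat (ties added) and the hosts of the 8 positions in most libraries. Same-numbered replicates did not deviate together (correlation at most 0.019 in the deep groups), so numbers pair no samples. Expression was not measured here, so the cell line was not checked by markers. A few results that the rule for named genes covers are not reported here.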

Additional observations from a re-analysis of the deposited data

Results flagged for a closer look

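RPL13A, a large-subunit protein, moved in opposite directions with re-engineering in the 2 transposase backgrounds: all 3 WT_rePB libraries lay below all 3 WT_PB libraries (0.14 ± 0.017 against 0.20 ± 0.055 sites per 10000), and all 3 WT_rehyPB libraries lay above all 3 WT_hyPB libraries (0.29 ± 0.020 against 0.21 ± 0.015). The limma test of the difference gave a log2 value of 0.95 ± 0.41 (adjusted p = 0.443), which does not pass the threshold.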

How the results depend on the processing

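Leaving out single libraries kept the direction of all 6 log2 ratios of the summed share, with ranges of 0.29 to 0.32 (hyperactive), -0.31 to -0.29 (re-engineering), 0.94 to 1.01 (short transposon), 1.29 to 1.45 (symmetric), 2.70 to 2.96 (piggyBat against WT_PB) and 1.81 to 2.07 (piggyBat against short_PB). Called genes ranged over 0 to 1, 1 to 3, 0 to 0, 0 to 0, 0 to 2 and 0 to 1 for the hyperactive, re-engineering, short, symmetric and both piggyBat comparisons. The difference of hyperactive effects gave 0 to 0. The cause of the following moves was not tested, save that stricter filters and fewer sites leave fewer genes to test. With a 1 kb window the log2 ratios were 0.36 (hyperactive), -0.37 (re-engineering), 0.73 (short), 0.30 (symmetric) and 2.22 (piggyBat against short_PB). Within gene bounds only they were 0.36 (hyperactive), 0.30 (short) and 2.39 (piggyBat against short_PB). The symmetric ratio could not be given there, nor for the tallest sites, because a library had no site. At a peak height of 10 they were 0.81 (short), 2.08 (symmetric) and 2.33 (piggyBat against short_PB). Thinned, they were 0.84 (short) and 3.36 (piggyBat against WT_PB). With the tallest sites, chosen after seeing the data, they were 0.32 (short) and 2.25 (piggyBat against WT_PB). Hyperactive calls were 0 with at least 5 expected sites, at a height of 10 and when thinned. Re-engineering calls were 1 with a 1 kb window and when thinned. Calls against WT_PB were 0 with 5 expected sites, a height of 10, 1 kb and averaged linked libraries, and 2 with the tallest sites. Calls against short_PB were 0 with 5 expected sites, a height of 10, 1 kb, thinned and averaged linked libraries. With no filter beyond 1 site, 71 (short), 72 (symmetric), 71 (piggyBat against WT_PB) and 21 of 61 (piggyBat against short_PB) were called. Over all genes it was 15758 of 18080, 17422 of 18208, 14697 of 17810 and 720 of 10623, in that order. In these fits many genes had no site in the shallow libraries, where the prior count sets the change. A replicate block gave 1, 2, 0, 0, 0, 1 and 1 calls, as without it, and changed no call count. Positions in at least 10 libraries numbered 49 at a height of 10 and 53 within 1 kb. With a height of 10 the upstream share was 100% in sym_rePB, on 5 sites, and 61.1% ± 34.7 in sym_rehyPB, on 7 sites. At that height 43.4% ± 6.0 of piggyBat sites were downstream, on 79 sites. Depth limits single genes in the 15 shallow libraries to a few sites each.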
